A study of Mus musculus with 12 samples.

Results

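Oxidative phosphorylation is carried out by 4 respiratory complexes and ATP synthase, and the nuclear genes that encode their subunits were followed here in liver and lung of mice that differed in dietary selenium. The members were the genes whose symbol in the array annotation starts with Ndufa, Ndufb, Ndufc, Ndufs or Ndufv (complex I), Sdh (complex II), Uqcr (complex III), Cox4i, Cox5, Cox6, Cox7 or Cox8 (complex IV), or Atp5 (ATP synthase), taken from probe sets annotated to a single gene. Of 13710 genes with such probe sets, 80 were members, with 156 probe sets, after 12 assembly factors with such symbols had been left out. Another 8 probe sets annotated to a member together with another gene were not used. For each gene the probe set with the highest mean signal in the tissue stood for it, and 33 members had only 1 to choose from.

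The 12 arrays came from wild-type male FVB/N mice in 4 groups of 3 biological replicates: 0.1 Se liver, 0 Se liver, 0.1 Se lung and 0 Se lung. From weaning, all mice ate a selenium-deficient diet for 6 weeks, to which sodium selenite was added at 0.1 ppm selenium (0.1 Se) or at 0 ppm (0 Se). The question put to the members was how the supplemented diet and the tissue bear on the mRNA of the respiratory chain, subunit by subunit and isoform by isoform. Values are log2 signals as deposited, where 1 unit is a doubling, and a blank stands for a probe set called absent or below a signal of 100, which cannot be told apart.

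In the inner mitochondrial membrane, complexes I and II take electrons from NADH and succinate, complex III passes them on to cytochrome c, and complex IV reduces oxygen to water, while complexes I, III and IV pump protons. ATP synthase lets the protons back through its membrane part Fo and makes ATP in its soluble part F1. Several complex IV subunits exist as isoforms from separate genes: mouse heart and skeletal muscle use Cox6a2, Cox7a1 and Cox8b where liver uses Cox6a1, Cox7a2 and Cox8a, and Cox4i2 is known as a lung and hypoxia-responsive form of Cox4i1. Hepatocytes are rich in mitochondria. In bulk tissue, fewer cells of a type and less RNA per cell cannot be told apart.

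Listed probe sets numbered 17235 to 17923 on the liver arrays and 22197 to 22718 on the lung arrays, with medians of listed values from 9.16 to 9.21 in liver and from 8.96 to 8.99 in lung. Arrays of a tissue correlated at 0.978 to 0.990 over the 13376 probe sets listed on all 12 arrays, and arrays of different tissues at 0.631 to 0.682. The labelled tissues carried their markers: the 8 hepatocyte markers were all listed on the 6 liver arrays, against 1 or 2 on the lung arrays, and the 9 lung epithelial markers were all listed in lung, against 1 to 3 in liver. Markers of heart muscle were also present in lung, with summed signals over 18 genes from 9088.7 to 27534.6 in 0.1 Se lung and from 7625.85 to 51095.3 in 0 Se lung, and 16 of the 18 were blank on all liver arrays.

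Liver carried more subunit mRNA than lung in nearly all members that could be compared. With the same probe set in both tissues, 75 members were tested by limma over the 12 arrays, and 71 of them were higher in liver and 3 lower at a Benjamini-Hochberg adjusted p under 0.05. After quantile normalization of the 12 arrays 62 were higher, 7 lower and 6 not called. Among the 15112 probe sets tested, 33.9% were higher in liver and 47.7% lower. The median member difference, liver minus lung, was 1.33 on the log2 scale, or 2.51-fold, against a median of -0.18 over all probe sets. The median of all probe sets moved by over 0.1 with the scaling of the arrays, so the members are best read against it: relative to that median the members lay 1.51 higher in liver as deposited, 1.51 higher after centring each array on its median and 1.12 higher after quantile normalization. As deposited, 72 of the 75 members lay above the median of all probe sets, and 71 did after quantile normalization. Within 0.1 Se alone the median member difference was 1.42, and within 0 Se alone 1.30, with 71 members higher in liver in each. Of 42 members with several tested probe sets, 38 had 1 sign of the difference on all of them, and the exceptions were Atp5c1, Cox7a2l, Ndufab1 and Ndufc2. All comparisons below draw on the same 12 arrays and are not independent of each other.

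**Figure D1:**
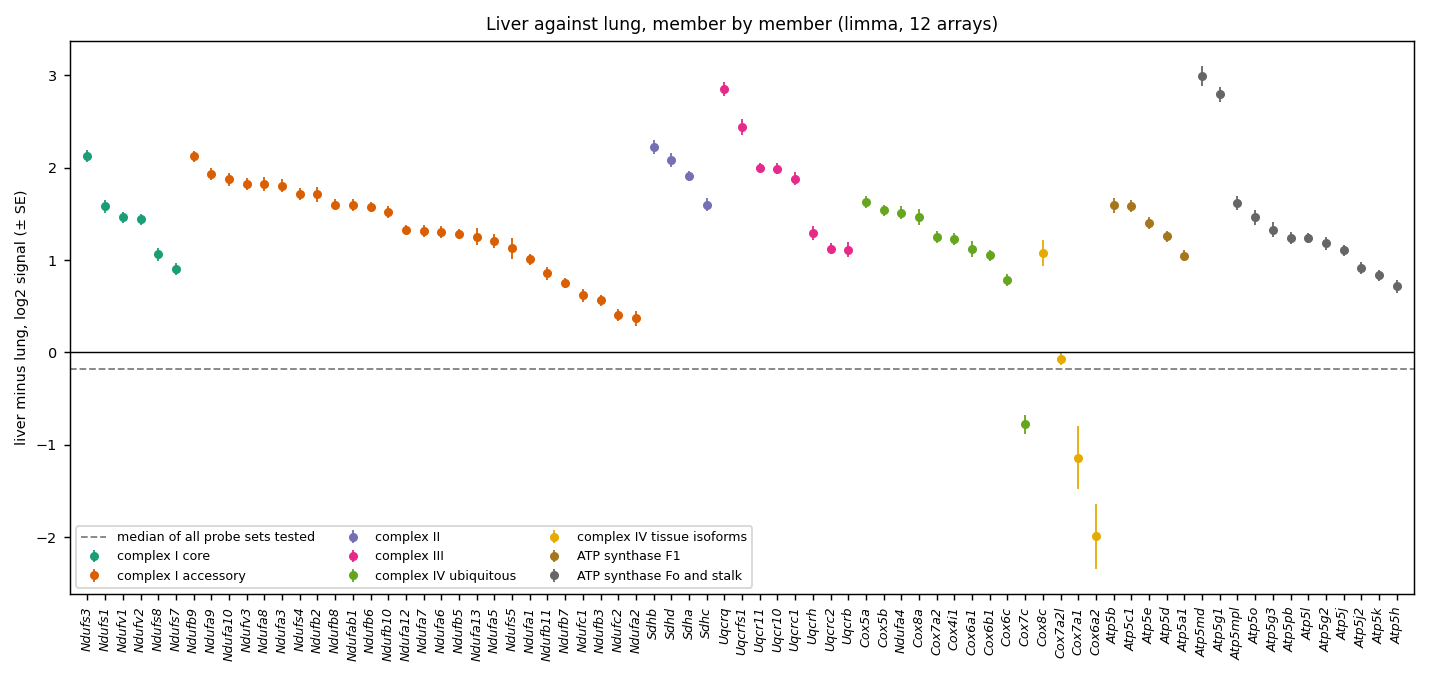
Difference between liver and lung for the 75 members tested, each point the limma estimate (log2 signal, liver minus lung) with its SE over 12 arrays, coloured by complex and sorted within it. The dashed line is the median of all probe sets tested (-0.18), and the points below 0 are Cox7c, Cox7a2l, Cox7a1 and Cox6a2.

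In complex I, 6 core subunits were measured and all 6 were higher in liver, by a median of 1.45, and so were 26 of 26 tested accessory subunits, by a median of 1.32. Ndufs3, in the peripheral arm, had log2 signals of 13.43, 13.51 and 13.57 in liver (lowest, median and highest of 6) and 11.23, 11.35 and 11.57 in lung. The tissues did not overlap, and the difference was 2.12 ± 0.06 (SE), or 4.36-fold (limma adjusted p = 7.98e-14). Ndufs1, an iron-sulfur subunit, differed by 1.58 ± 0.07 (adjusted p = 6.99e-12) and Ndufv1, the flavin subunit that binds NADH, by 1.46 ± 0.06 (adjusted p = 3.9e-12). At the low end were the accessory subunits Ndufa2 (0.37 ± 0.08, limma adjusted p = 0.000689) and Ndufc2 (0.40 ± 0.07, adjusted p = 6.05e-05). Both have probe sets that can bind related transcripts, and after quantile normalization both were lower in liver (-0.38 and -0.43). Ndufb3 (0.56 as deposited, -0.08 after quantile normalization), Ndufc1 (0.62 and -0.18) and Atp5h of ATP synthase (0.71 and -0.08) also changed sign, and of these only Ndufc1 passed the test after quantile normalization. With Ndufb3 and Atp5h, the calls of Ndufb7, Ndufb11, Cox6c and Atp5k were also lost there (0.08, 0.02, 0.03 and 0.06), which left 20 accessory subunits of complex I higher in liver, 3 lower and 3 not called. Ndufb1, an accessory subunit, was listed on 4 liver arrays and on 1 lung array and was not tested between tissues.

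Complexes II and III had the widest differences. All 4 complex II subunits were higher in liver, by 1.60 to 2.23 with a median of 2.00. Sdhb, the iron-sulfur subunit, gave 14.04, 14.21 and 14.40 in liver (lowest, median, highest) and 11.81, 11.96 and 12.21 in lung, a difference of 2.23 ± 0.08 or 4.68-fold (limma adjusted p = 3.8e-13). The flavin subunit Sdha differed by 1.91 ± 0.06 (limma adjusted p = 8.1e-14). The 8 complex III subunits were higher in liver by 1.11 to 2.85, with a median of 1.93. Uqcrq, a small subunit, had 13.86, 13.99 and 14.09 in liver and 10.91, 11.15 and 11.31 in lung, or 7.21-fold more in liver (limma adjusted p = 1.5e-14). Uqcrfs1, the Rieske iron-sulfur protein, was 5.43-fold higher (2.44 ± 0.09, limma adjusted p = 8.04e-13), and the core subunit Uqcrc1 3.68-fold (1.88 ± 0.07, adjusted p = 8.53e-13). Relative to the median of all probe sets, complex II lay 2.18 and complex III 2.12 higher in liver as deposited, and 1.79 and 1.74 after quantile normalization, which were the widest of the 8 groups of subunits under both scalings. Differences between complexes were not tested.

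In ATP synthase, the 5 F1 subunits and the 12 subunits of Fo and the stalk were all higher in liver, with medians of 1.40 and 1.24. For the F1 subunit Atp5c1 (1.58) a dim second probe set was lower in liver (-0.78, limma adjusted p = 1.52e-05). Atp5b, the catalytic beta subunit, differed by 1.59 ± 0.08 (limma adjusted p = 2.72e-11) and Atp5o, which ties F1 to the stalk, by 1.46 ± 0.08 (adjusted p = 1.04e-10). Atp5md, a small membrane subunit, had the largest difference among the members tested, with 13.32, 13.51 and 14.02 in liver (lowest, median, highest) and 10.37, 10.53 and 10.89 in lung, a difference of 2.99 ± 0.11 or 7.96-fold (limma adjusted p = 6.2e-13).

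The ring of Fo is built of subunit c, which mammals encode in 3 genes, Atp5g1, Atp5g2 and Atp5g3, whose products share the mature protein and differ in the targeting sequence that is cut off. The genes differed between the tissues to unequal degrees. Atp5g1 gave 13.26, 13.40 and 13.53 in liver and 10.28, 10.59 and 10.94 in lung, 6.93-fold more in liver (2.79 ± 0.08, limma adjusted p = 6.79e-14). Atp5g2 differed by 1.18 ± 0.07 and Atp5g3 by 1.33 ± 0.08, or 2.27-fold and 2.51-fold (limma adjusted p = 4.34e-10 and 3.25e-10). Since 2 probe sets bind their targets unequally, a ratio of 2 genes is read here only for its change between tissues. The log2 ratio of Atp5g1 over Atp5g3 averaged -1.75 ± 0.09 in liver and -3.21 ± 0.20 in lung (SD, 6 arrays each), a change of 1.47 (two-sided exact permutation test, adjusted p = 0.002886 over the 4 pairs tested, from p = 0.0021645, the smallest that 6 against 6 arrays allow). That of Atp5g1 over Atp5g2 averaged 0.45 ± 0.09 in liver and -1.16 ± 0.20 in lung, a change of 1.61 (exact permutation test, adjusted p = 0.002886). For Atp5g2 over Atp5g3 the change was -0.15 (exact permutation test, adjusted p = 0.192641), so these genes were not shown to differ from each other. Leaving out any 1 array moved the first ratio only between 1.40 and 1.51.

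The stretches around the annotated start of the subunit c genes are shown because the genes differ in how far apart the tissues lie. They run from 250 bases before to 50 bases after the start, 5′ to 3′ on the gene's strand (RefSeq, GRCm38.p6), and capitals mark the NRF1 motif (GCGCATGC), the ERR motif (AAGGTCA) and the GABP motif (CCGGAAG) on either strand. Sdhb is shown beside them as the gene with the largest difference in complex II.
Atp5g1 (chr11:96075582-96075881, minus strand): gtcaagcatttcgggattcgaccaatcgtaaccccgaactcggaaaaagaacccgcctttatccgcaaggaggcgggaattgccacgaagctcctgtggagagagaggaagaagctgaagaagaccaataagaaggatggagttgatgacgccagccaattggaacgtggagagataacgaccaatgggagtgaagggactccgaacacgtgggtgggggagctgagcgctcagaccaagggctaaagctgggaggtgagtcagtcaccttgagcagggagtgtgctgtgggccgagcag
Atp5g2 (chr15:102670998-102671297, minus strand): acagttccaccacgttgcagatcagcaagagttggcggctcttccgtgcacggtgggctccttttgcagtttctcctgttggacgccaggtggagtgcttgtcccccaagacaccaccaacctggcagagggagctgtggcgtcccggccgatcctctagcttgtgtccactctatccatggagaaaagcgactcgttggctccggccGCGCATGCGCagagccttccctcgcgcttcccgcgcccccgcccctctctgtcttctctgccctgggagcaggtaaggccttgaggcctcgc
Atp5g3 (chr2:73911277-73911576, minus strand): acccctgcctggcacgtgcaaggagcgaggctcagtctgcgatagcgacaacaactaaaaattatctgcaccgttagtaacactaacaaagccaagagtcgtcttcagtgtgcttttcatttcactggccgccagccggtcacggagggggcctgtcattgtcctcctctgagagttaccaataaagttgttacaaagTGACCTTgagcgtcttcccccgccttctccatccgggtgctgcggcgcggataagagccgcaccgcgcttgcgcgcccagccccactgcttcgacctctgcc
Sdhb (chr4:140961021-140961320, plus strand): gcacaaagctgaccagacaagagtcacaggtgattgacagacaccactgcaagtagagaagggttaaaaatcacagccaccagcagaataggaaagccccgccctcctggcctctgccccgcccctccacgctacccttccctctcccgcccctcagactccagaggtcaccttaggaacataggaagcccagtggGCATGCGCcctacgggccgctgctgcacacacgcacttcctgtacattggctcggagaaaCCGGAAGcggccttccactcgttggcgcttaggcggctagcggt
Atp5g1, the gene with the 6.93-fold difference, holds none of these letters in its window, Atp5g2 holds the NRF1 motif in both orientations, overlapping, and Atp5g3 holds the ERR motif. Sdhb holds 1 NRF1 and 1 GABP motif.

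NRF1, GABP and the estrogen-related receptors are known regulators of nuclear genes for mitochondrial proteins. By gene number, 65 of the 80 members matched the promoter table of 27025 genes. At least 1 NRF1 motif stood in the window of 9 matched members, or 13.8%, against 3.05% of all genes, a GABP motif in 17, or 26.2%, against 9.93%, and an ERR motif in 7, or 10.8%, against 5.38%. The TATA letters (TATAAA) were found in 7 members, or 10.8%, against 15.7%. The members' windows held a median of 19 CG dinucleotides, against 7 over all genes. Both the NRF1 and the GABP letters contain a CG, and the shares were not set against genes of like CG content. These are matches of letters on both strands and not sites of binding.

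As deposited, complex IV was the only complex with members called lower in liver, and its isoforms set it apart. After quantile normalization 3 accessory subunits of complex I were called lower too. Of the 10 ubiquitous subunits tested, 9 were higher in liver, with Cox5a at 1.63 ± 0.06 (limma adjusted p = 1.16e-12) and Cox5b at 1.54 ± 0.06 (adjusted p = 2.52e-12), both structural subunits. Ndufa4, first assigned to complex I and now to complex IV, differed by 1.51 ± 0.07 (limma adjusted p = 6.76e-12), Cox4i1 by 1.23 ± 0.06 (adjusted p = 2.92e-11) and Cox6b1 by 1.05 ± 0.06 (adjusted p = 1.09e-10). The exception was Cox7c, at -0.78 ± 0.10 (limma adjusted p = 3.84e-06), whose signals lay from 7.44 to 7.98 in liver and from 8.27 to 8.70 in lung, near the lowest value the table lists. Its other probe set was blank on the liver arrays, so the direction for Cox7c rests on a single dim probe set that can bind related transcripts.

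Of the 8 tissue isoforms and paralogs of complex IV, 4 could be tested between tissues, and 4 were listed in lung only. Cox6a2, the heart and muscle form of subunit 6a, had 7.49 and 7.37 in 0.1 Se liver with 1 blank, 7.42 and 7.17 in 0 Se liver with 1 blank, 9.73, 8.64 and 8.97 in 0.1 Se lung and 8.23, 10.47 and 10.07 in 0 Se lung. The liver values lay below every lung value, by 1.99 ± 0.35 or 3.97-fold in the fit (limma adjusted p = 0.000153). Its liver partner Cox6a1 went the other way, at 1.12 ± 0.08 (limma adjusted p = 4.83e-09). Cox7a1, the heart and muscle form of subunit 7a, had 6.83, 7.12 and 7.45 in 0.1 Se liver, 6.93 and 7.13 with 1 blank in 0 Se liver, 8.48, 7.27 and 7.63 in 0.1 Se lung and 7.31, 9.67 and 8.94 in 0 Se lung, and was lower in liver by 1.14 ± 0.34 (limma adjusted p = 0.007) with overlapping values. Cox7a2, its liver partner, was higher in liver by 1.25 ± 0.06 (limma adjusted p = 3.5e-11).

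Cox8b, the heart and muscle form of subunit 8, was blank on all 6 liver arrays and had 8.37, 7.89 and 7.93 in 0.1 Se lung and 7.72, 9.54 and 8.91 in 0 Se lung, so no fold is given. Cox8a, the form used in liver, had 13.20, 13.26 and 13.54 in liver (lowest, median, highest) and 11.57, 11.88 and 12.02 in lung (1.47 ± 0.09, limma adjusted p = 3.17e-10). Cox4i2 was also listed in lung only, with 7.29, 7.66 and 6.94 in 0.1 Se lung and 7.54, 7.36 and 7.42 in 0 Se lung, and so was Cox6b2, known as a testis form, with 8.17 to 8.74 over the 6 lung arrays. Ndufa4l2, a hypoxia-inducible paralog of Ndufa4, was blank in liver and listed on 5 of 6 lung arrays, from 6.96 to 7.79. Pericytes are known to express both Cox4i2 and Ndufa4l2. The 9 pericyte markers were all listed in lung, with summed signals from 16028.4 to 20878.7, against 6 or 7 listed in liver, with 5024.1 to 5902.96. Of 7 tested between tissues, 4 were lower in liver and 2 higher by limma, with differences from -4.54 to 2.13. The part of pericytes in the levels of Cox4i2 and Ndufa4l2 was not tested. Cox8c, a testis form of subunit 8, was listed on 4 liver arrays (median 8.85) and 5 lung arrays (median 7.86) and was higher in liver by 1.07 ± 0.14 (limma adjusted p = 1.08e-05), a call that ended when blanks were set to the lowest value (0.50, adjusted p = 0.426).

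**Figure D2:**
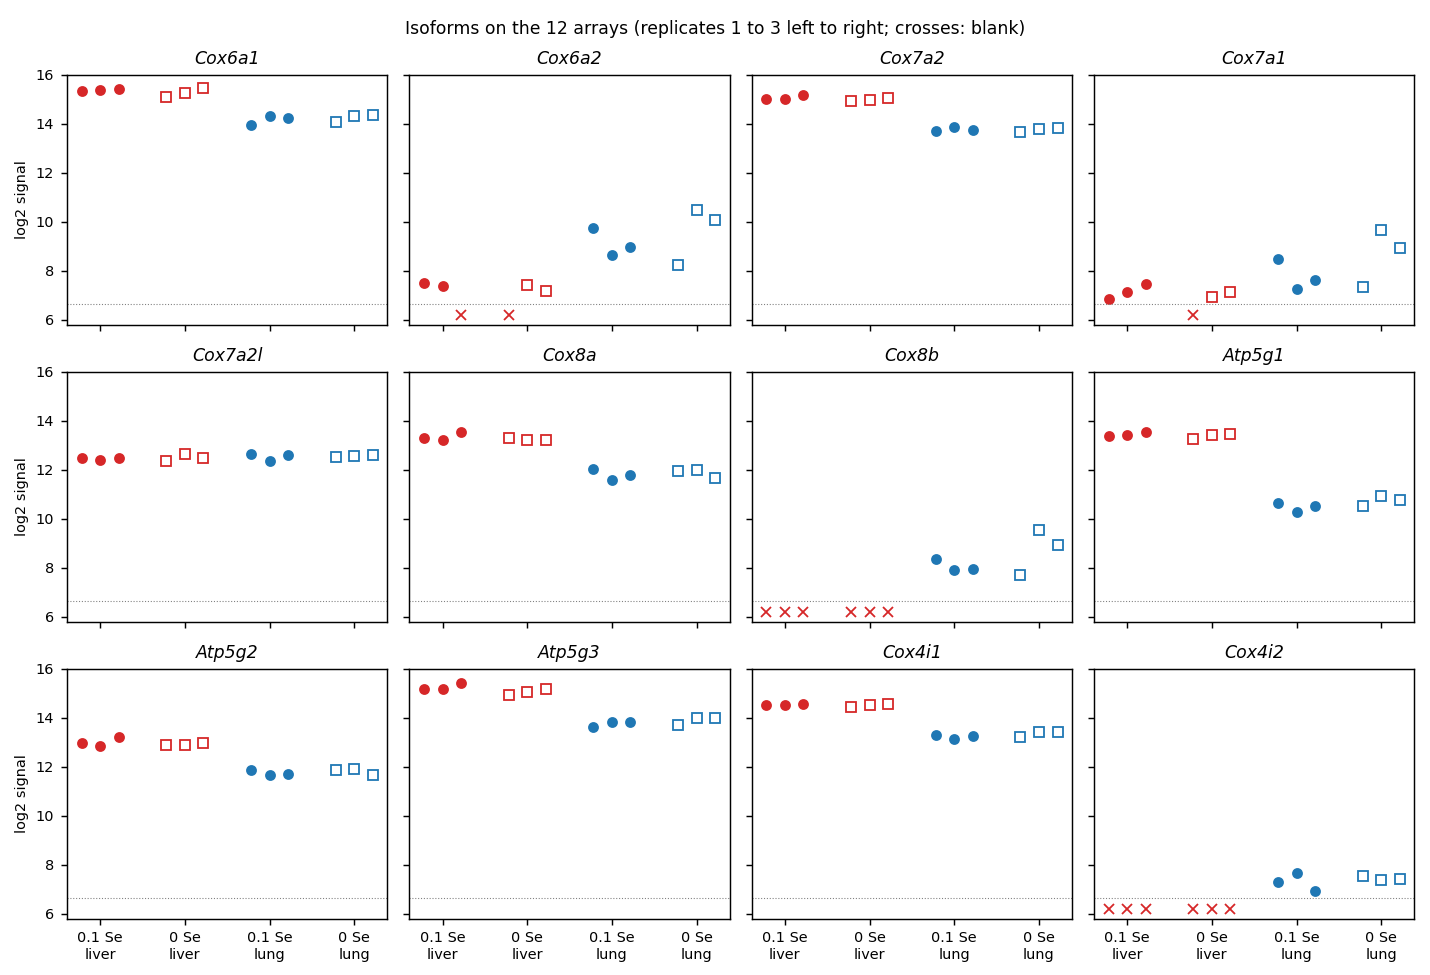
Log2 signals of 12 isoform genes on the 12 arrays, liver in red and lung in blue, 0.1 Se filled and 0 Se open, with blanks as crosses under the dotted line of the lowest value the table lists. Cox6a2, Cox7a1 and Cox8b are low or blank in liver and vary between lung arrays, while Cox7a2l sits between 12.33 and 12.63 on all 12 arrays.

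Cox7a2l is a relative of subunit 7a that joins complexes III and IV into supercomplexes. On the probe set chosen over both tissues, it was the member that did not pass the test between tissues. It had 12.33, 12.46 and 12.63 in liver and 12.37, 12.56 and 12.62 in lung (lowest, median, highest), a difference of -0.07 ± 0.07 with a 95% interval from -0.22 to 0.07 (limma adjusted p = 0.31). Its 3 probe sets gave -0.07, 0.07 and 0.40, and quantile normalization gave -0.78, so its direction depends on both. The probe set at 0.40, which stood for the gene in the liver diet comparison, passed the test as deposited (limma adjusted p = 3.65e-05). The ratio of Cox7a2l over Cox7a2 within an array, which a single scaling factor per array cannot move, averaged -2.55 ± 0.12 in liver and -1.23 ± 0.15 in lung (SD, 6 arrays each), a change of -1.32 (two-sided exact permutation test, adjusted p = 0.002886). With the next probe set of Cox7a2l the change was -0.84, and with that of Cox7a2 it was -1.49.

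The windows around the starts of the muscle and liver isoforms of subunits 7a and 8 are printed for comparison (Cox6a2 was not among the matched members), with the same capitals as above and TATAAA marked as well.
Cox7a1 (chr7:30183921-30184220, plus strand): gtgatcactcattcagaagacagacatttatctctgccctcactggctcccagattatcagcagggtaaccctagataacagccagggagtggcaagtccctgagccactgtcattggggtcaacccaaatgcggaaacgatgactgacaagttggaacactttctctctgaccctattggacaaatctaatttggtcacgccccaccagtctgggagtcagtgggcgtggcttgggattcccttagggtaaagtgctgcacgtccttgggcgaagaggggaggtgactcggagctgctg
Cox7a2 (chr9:79759804-79760103, minus strand): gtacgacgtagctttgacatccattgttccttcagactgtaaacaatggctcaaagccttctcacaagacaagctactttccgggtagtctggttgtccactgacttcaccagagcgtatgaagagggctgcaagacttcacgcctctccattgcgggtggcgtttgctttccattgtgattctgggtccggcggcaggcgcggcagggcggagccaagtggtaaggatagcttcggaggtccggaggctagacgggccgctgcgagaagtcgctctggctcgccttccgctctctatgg
Cox8b (chr7:140900397-140900696, minus strand): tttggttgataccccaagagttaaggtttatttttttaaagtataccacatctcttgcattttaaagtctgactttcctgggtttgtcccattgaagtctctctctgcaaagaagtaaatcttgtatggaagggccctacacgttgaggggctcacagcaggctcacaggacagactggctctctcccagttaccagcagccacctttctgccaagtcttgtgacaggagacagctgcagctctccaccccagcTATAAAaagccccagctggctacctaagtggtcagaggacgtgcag
Cox8a (chr19:7217567-7217866, minus strand): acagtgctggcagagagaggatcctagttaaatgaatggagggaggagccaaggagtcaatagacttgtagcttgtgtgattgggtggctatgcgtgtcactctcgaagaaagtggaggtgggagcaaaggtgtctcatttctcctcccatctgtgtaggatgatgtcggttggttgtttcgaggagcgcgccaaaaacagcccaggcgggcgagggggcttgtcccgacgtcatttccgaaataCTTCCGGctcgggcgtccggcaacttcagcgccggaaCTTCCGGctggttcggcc
Cox7a1 holds 7 CG dinucleotides, against 20 in Cox7a2, and Cox8b holds 2, against 19 in Cox8a. Cox8b holds TATAAA once, and Cox8a holds the GABP letters at 2 places on the other strand.

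In liver, no member passed the test for diet. Of the 80 members, 76 were tested (Cox4i2, Cox6b2, Cox8b and Ndufa4l2 being blank there), and 0 were called by limma at an adjusted p under 0.05, while 0.0121% of the 16575 probe sets tested were. At an unadjusted p under 0.05 there were 0 members higher in 0.1 Se liver and 1 lower, beside 2.94% and 3.71% of all probe sets. The differences, 0.1 Se minus 0 Se, were small and mostly above 0: 60 of 76 were positive, with a median of 0.07 and a range from -0.33 to 0.20, against a median of -0.005 over all probe sets, 48.99% of which were above 0. The 8 hepatocyte markers were above 0 as well, 8 of 8, with a median of 0.12 and none called. The 8 groups of subunits had medians from 0.06 (complex I accessory) to 0.11 (complex IV tissue isoforms). Some probe sets not chosen for their gene went further. Ndufab1 was at -0.65 on a dim one and Uqcr10 at 0.49 (limma adjusted p = 0.594 and 0.813). On bright ones Cox6c was at -0.38 and Ndufa5 at 0.33 (limma adjusted p = 0.757 and 0.640), against 0.04 and 0.08 on the chosen ones. Ndufs4 was at 0.34 on another (limma adjusted p = 0.798). The paper lists Ndufab1 among the genes lower in 0.1 Se on the liver arrays, by a t-test at p under 0.05. Of 72 members with values on all 6 liver arrays, the diets did not overlap for 3 that were higher in 0.1 Se (Ndufv1, Ndufa10 and Atp5mpl) and 2 that were lower (Ndufb6 and Cox7c), where 4.99% and 7.22% of all probe sets did so. Other probe sets of Ndufv1 went the opposite way, at -0.09 and -0.04.

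Ndufb6, an accessory subunit of complex I, had the smallest p, with 13.20, 13.08 and 12.97 in 0.1 Se liver and 13.31, 13.30 and 13.27 in 0 Se liver (-0.21 ± 0.09, limma adjusted p = 0.732). The diets did not overlap, but another probe set of the gene gave -0.04. Atp5g3 had 15.17, 15.18 and 15.42 in 0.1 Se liver and 14.92, 15.05 and 15.18 in 0 Se liver (0.20 ± 0.11, limma adjusted p = 0.797), with the diets touching at 15.18. Atp5mpl, a small membrane subunit of ATP synthase, gave 12.99, 13.00 and 13.15 in 0.1 Se liver and 12.90, 12.89 and 12.90 in 0 Se liver (0.15 ± 0.08, limma adjusted p = 0.806), and Ndufa10 gave 0.16 ± 0.09 (adjusted p = 0.813). The members moved with the array: over the 72 genes the median deviation from the liver mean was 0.05, -0.03 and 0.06 on the 0.1 Se arrays and -0.10, -0.01 and 0.03 on the 0 Se arrays. The summed hepatocyte markers were 455013, 476997 and 495530 on the 0.1 Se arrays and 394095, 427308 and 491915 on the 0 Se arrays, and their part in the members' differences was not tested. On 0 Se liver replicate 1, where that sum was lowest, 69 of the 72 members lay below their liver mean, and the median member difference was 0.04 without that array and 0.03 without 0.1 Se liver replicate 3.

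In lung, no member passed the test either, and the differences lay mostly below 0. Of 79 members tested (all but Ndufb1), 0 were called by limma, beside 0.0924% of the 21655 probe sets tested. At an unadjusted p under 0.05, 0 members were higher in 0.1 Se lung and 3 lower, beside 3.55% and 4.12% of all probe sets. The difference was below 0 for 67 of the 79, with a median of -0.10 and a range from -0.85 to 0.40, against -0.008 and 52.1% below 0 over all probe sets. By group the medians were -0.05 and -0.08 for core and accessory subunits of complex I, -0.06 for complex II, -0.15 for complex III, -0.09 and -0.13 for ubiquitous and tissue subunits of complex IV, and -0.20 and -0.12 for F1 and Fo of ATP synthase. Among 77 members with values on all 6 lung arrays, the diets did not overlap for 1 that was higher in 0.1 Se (Cox7c) and 13 that were lower, where 6.07% and 6.86% of all probe sets did so. Those 13 came from complex I (Ndufa8 and Ndufv3), II (Sdhc), III (Uqcr10 and Uqcrc2), IV (Cox5b, Cox6b1 and Ndufa4) and ATP synthase (Atp5a1, Atp5d, Atp5j, Atp5j2 and Atp5l). They share 6 arrays and are not independent of each other. Other probe sets gave smaller differences of the same sign for Cox5b (-0.09, -0.05 and -0.04, against -0.19) and Atp5j2 (-0.03 against -0.19). So did those of Atp5d (-0.13 against -0.22), Atp5a1 (-0.10 and -0.09 against -0.20) and Uqcrc2 (-0.09 against -0.18). For Uqcr10 the other probe set went further (-0.23 against -0.13), and for Cox6b1 both gave -0.10.

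Ndufv3, an accessory subunit beside the NADH site, had 11.07, 11.19 and 11.13 in 0.1 Se lung and 11.33, 11.53 and 11.26 in 0 Se lung (-0.24 ± 0.09, limma adjusted p = 0.555). Atp5d, the delta subunit of F1, had 12.55, 12.39 and 12.52 in 0.1 Se lung and 12.66, 12.72 and 12.73 in 0 Se lung (-0.22 ± 0.08, limma adjusted p = 0.56). Sdhc, a membrane anchor of complex II, had 10.00, 10.12 and 10.24 in 0.1 Se lung and 10.27, 10.46 and 10.38 in 0 Se lung (-0.25 ± 0.10, limma adjusted p = 0.586), and its second probe set gave -0.21. In these genes each 0.1 Se lung array lay below each 0 Se lung array. Ndufb2, also an accessory subunit, had 11.20, 10.78 and 11.04 in 0.1 Se lung and 11.28, 11.40 and 11.11 in 0 Se lung, with 1 array of each diet in the other's range (-0.26 ± 0.12, limma adjusted p = 0.659). Ndufs5, another accessory subunit, went the other way with 8.82, 9.15 and 8.49 in 0.1 Se lung and 8.56, 8.42 and 8.29 in 0 Se lung (0.40 ± 0.18, limma adjusted p = 0.652), on a dim probe set.

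**Figure D3:**
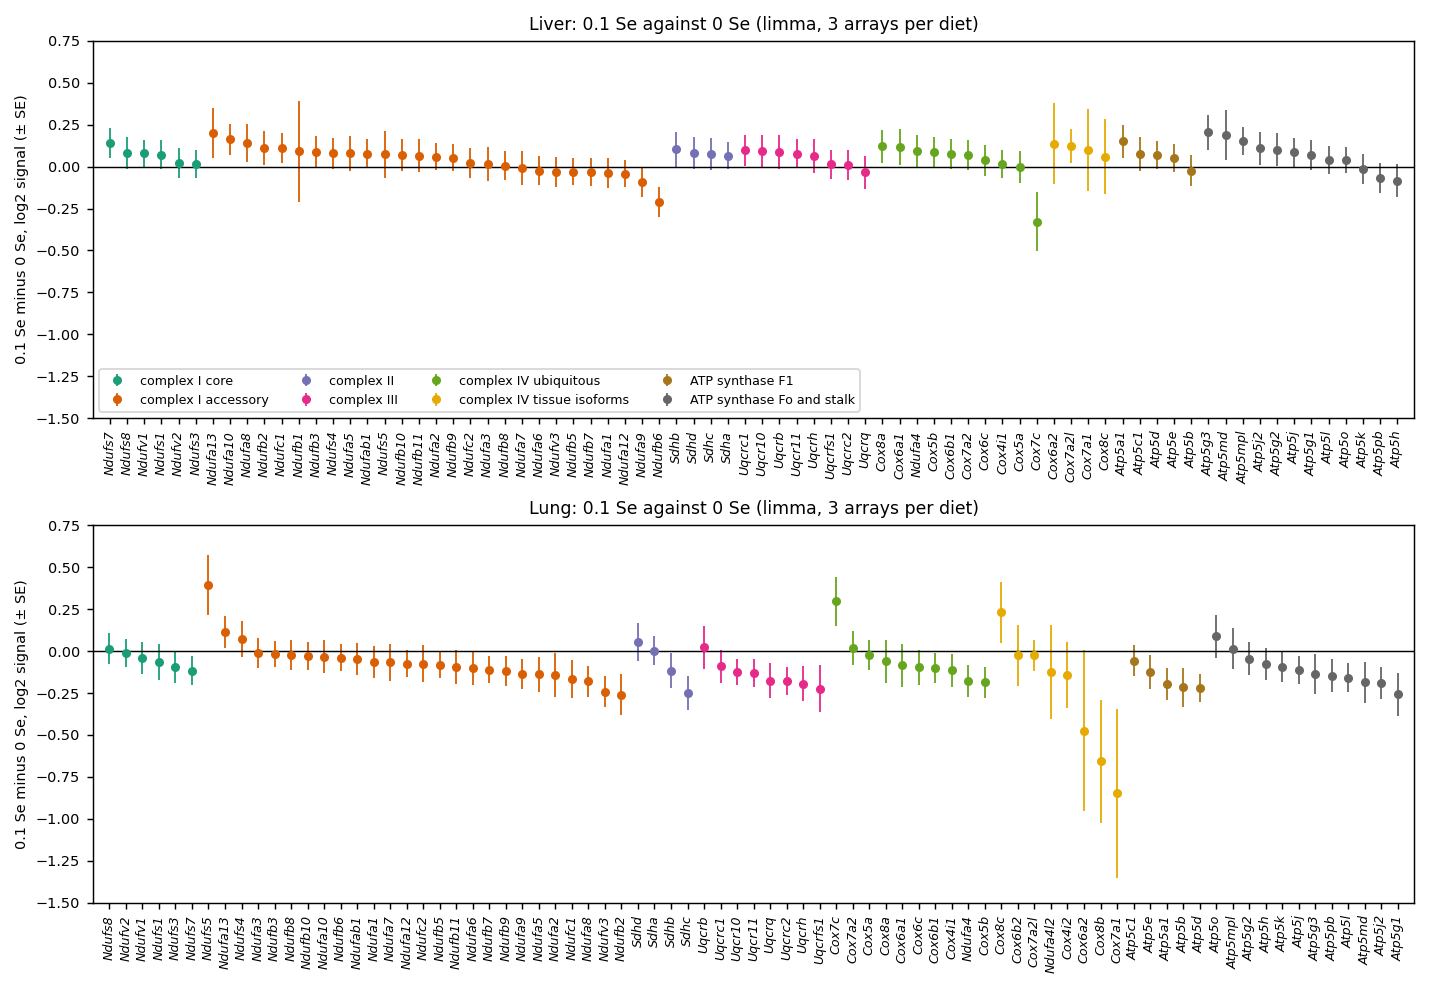
Difference between the diets (log2 signal, 0.1 Se minus 0 Se) for each member tested in liver (upper panel, 76 genes) and lung (lower panel, 79 genes), with the limma SE, coloured by complex and sorted within it. Most points lie above 0 in liver and below 0 in lung, none passes the test, and the heart and muscle isoforms Cox6a2, Cox8b and Cox7a1 have the widest errors in lung.

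The largest differences in lung were those of the heart and muscle isoforms, and they went with the heart markers of single arrays. Cox7a1 differed by -0.85 ± 0.50 (95% interval from -1.96 to 0.26, limma adjusted p = 0.766), Cox8b by -0.66 ± 0.37 (adjusted p = 0.754) and Cox6a2 by -0.47 ± 0.48 (adjusted p = 0.875). Single arrays decided these values: without 0 Se lung replicate 1 they were -1.51, -1.16 and -1.15 for Cox7a1, Cox8b and Cox6a2, and without 0 Se lung replicate 2 they were -0.33, -0.25 and -0.03. Cox6a2 was also at -0.78 when 0.1 Se lung replicate 1 was left out, at -0.24 when 0.1 Se lung replicate 2 was, and at -0.23 when 0 Se lung replicate 3 was. A second probe set of Cox6a2, listed on 2 lung arrays of each diet, gave -1.45 (limma adjusted p = 0.124). All 3 were highest on 0 Se lung replicates 2 and 3, followed by 0.1 Se lung replicate 1. Myh6, the cardiac myosin heavy chain, had 12.17, 9.81 and 10.27 in 0.1 Se lung and 9.26, 12.83 and 12.24 in 0 Se lung, the same order of arrays at the top, and Tnni3, cardiac troponin I, had 10.24, 8.36 and 8.71 in 0.1 Se lung and 7.86, 11.18 and 10.52 in 0 Se lung. Summed over the 18 heart markers, of which 14 to 15 were listed in 0.1 Se lung and 14 to 18 in 0 Se lung, the signal was 27534.6, 9088.7 and 10758.5 in 0.1 Se lung and 7625.85, 51095.3 and 30450.7 in 0 Se lung. Skeletal muscle markers were blank for 9 of 13 genes on all lung arrays, and in 0.1 Se lung they summed to at most 154.14, against at most 529.366 in 0 Se lung. Brown fat markers (6 genes) summed to 1126.88, 856.383 and 748.817 in 0.1 Se lung and 733.507, 2382.06 and 1504.45 in 0 Se lung, highest on the same 3 arrays as the heart markers. Of these 6, Ucp1, Elovl3 and Otop1 were blank on all lung arrays, and the 2 tested, Ppargc1a and Fabp3, which heart muscle also expresses, were at -0.41 and -0.61 (limma adjusted p = 0.567 and 0.81). White fat markers (5 genes) summed to 598.492 to 1876.51 in 0.1 Se lung and 1301.11 to 6082.18 in 0 Se lung, highest on 0 Se lung replicate 2, and smooth muscle markers (6 genes) to 8597.66 to 11560.6 in 0.1 Se lung and 10962.4 to 13054.6 in 0 Se lung.

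**Figure D4:**
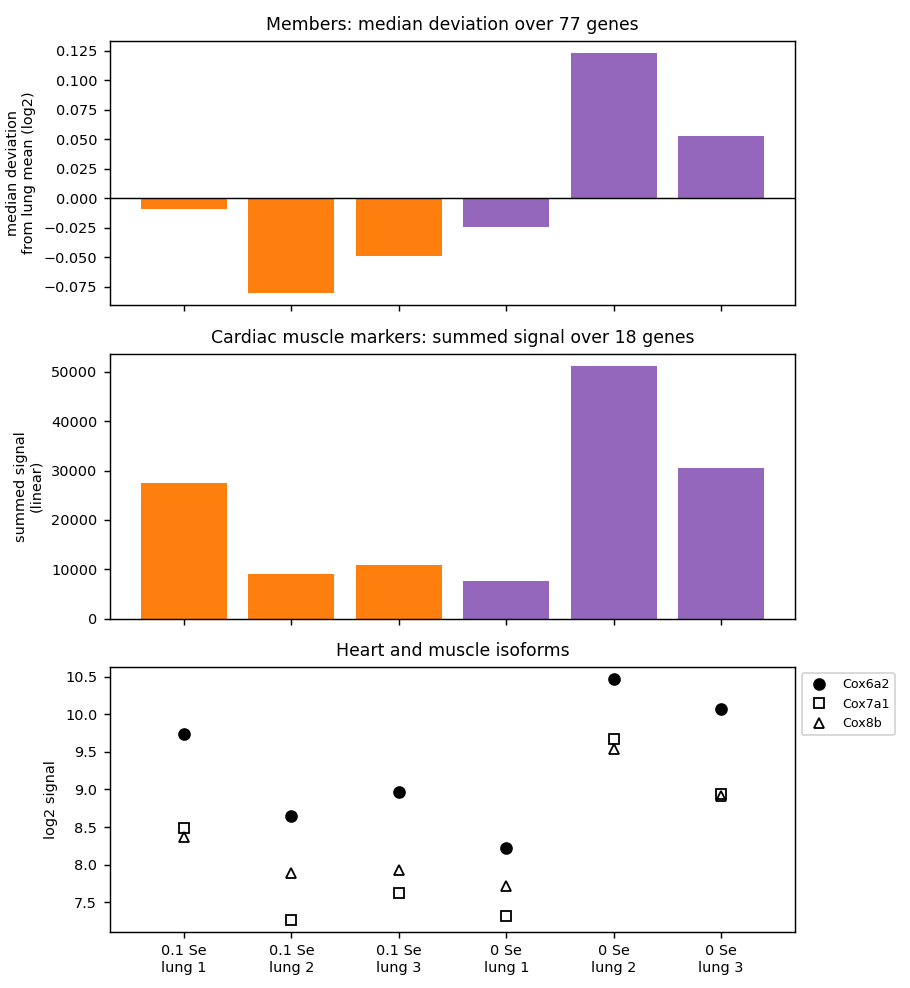
The 6 lung arrays, 0.1 Se in orange and 0 Se in purple: the median deviation of 77 members from their lung mean (upper panel, log2), the summed signal of 18 heart muscle markers (middle panel, linear scale) and the log2 signals of Cox6a2, Cox7a1 and Cox8b (lower panel). 0 Se lung replicate 2 is highest in all 3 panels, with a median deviation of 0.12 and a marker sum of 51095.3.

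The other members deviated less, and by array. Over 77 members the median deviation from the lung mean was -0.01, -0.08 and -0.05 on the 0.1 Se arrays and -0.02, 0.12 and 0.05 on the 0 Se arrays, and on 0 Se lung replicate 2 there were 68 members above their mean and 9 below. Among the 3 arrays with low heart markers (0.1 Se replicates 2 and 3 and 0 Se replicate 1) the median difference between diets was -0.04, with 50 of 77 below 0, while Cox6a2, Cox7a1 and Cox8b were at 0.58, 0.13 and 0.20. Among the 3 with high heart markers (0.1 Se replicate 1 and 0 Se replicates 2 and 3) it was -0.10, with 53 of 77 below 0, and the 3 isoforms were at -0.54, -0.82 and -0.86. These comparisons have 1 array on one side and no test, and the arrays were divided after their values had been seen. Between tissues, Cox6a2 on the lung arrays with low heart markers (8.64, 8.97 and 8.23) and the liver values (7.17 to 7.49) did not overlap, while Cox7a1 there (7.27, 7.63 and 7.31) overlapped the liver values (6.83 to 7.45). Those lung arrays still listed 14 of the 18 heart markers, with sums from 7625.85 to 10758.5, against 1 or 2 listed in liver, with 1747.76 to 2655.19. The part of heart muscle RNA in these differences, between tissues and between diets, was not tested.

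Whether a member's response to diet differed between the tissues was tested in a fit of the 12 arrays. Of 75 members tested, 0 were called by limma (0% of the 15112 probe sets were), and at an unadjusted p under 0.05 there was 1 member with a higher and 6 with a lower difference in lung than in liver, beside 3.24% and 2.92% of all probe sets. The difference of differences, lung minus liver, was below 0 for 67 of 75 members, with a median of -0.14 against -0.0009 over all probe sets. Cox7c had the smallest p, at 0.62 ± 0.20 (limma adjusted p = 0.732): its signal was 7.46, 7.44 and 7.57 in 0.1 Se liver, 7.77, 7.98 and 7.71 in 0 Se liver, 8.67, 8.37 and 8.70 in 0.1 Se lung and 8.29, 8.27 and 8.29 in 0 Se lung, so the diets did not overlap in either tissue and stood in opposite order. Uqcrc2, a core subunit of complex III, gave -0.38 ± 0.12 (limma adjusted p = 0.732) on the probe set with the highest mean over both tissues and -0.10 on its other one. For Atp5d the value was -0.29 ± 0.11 and for Sdhc -0.33 ± 0.14 (limma adjusted p = 0.76 for both).

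Genes that work beside the subunits were also mostly higher in liver than in lung. Of 43 tested assembly factors, 40 were higher in liver and 0 lower by limma, with a median of 0.98. Of 17 genes of the citric acid cycle and pyruvate dehydrogenase, 14 were higher in liver and 1 lower (median 1.29), and of 17 partners of the respiratory chain, 14 were higher and 2 lower (median 1.39). The 2 lower ones were Slc25a4, the ADP/ATP carrier of heart and muscle, at -3.75, and Atpif1, the inhibitor of ATP synthase, at -1.22, while Slc25a5, the ubiquitous carrier, was at 1.73. Of 11 regulators of mitochondrial biogenesis tested, 7 were higher in liver, among them Ppargc1a (1.59) and Esrra (1.43), and 2 lower, Nrf1 (-1.12) and Pprc1 (-0.83). In neither tissue was a gene of these 4 lists called for diet by limma, with medians from -0.02 to 0.05 in liver and from -0.12 to -0.04 in lung. At an unadjusted p under 0.05 there were 1 higher and 3 lower in liver, of 43 assembly factors, 17 cycle genes, 17 partners and 14 regulators tested, beside 2.94% and 3.71% of all probe sets. In lung there were also 1 higher and 3 lower, with 12 regulators tested and the other lists as in liver, beside 3.55% and 4.12%.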

How the data were processed

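RNA from liver and lung had been labelled by 3′ in vitro transcription and hybridized to Affymetrix mouse genome arrays. The deposited values are log2 signals that the authors computed with MAS5 (affy 1.36.0 under R 2.15.2, per the submitters' processing notes), each array scaled on its own and absent calls left out, with 6.64 as the lowest value listed. The number of arrays, 3 per group, limits the precision. Per the labels they are biological replicates, and whether same-numbered liver and lung arrays come from 1 mouse is not given in the sources used here.

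Of 29409 probe sets without controls, 24504 were annotated to a single gene. Differences were fitted with limma 3.58.1 (R 4.3.3; eBayes with trend, at least 2 values per group), within a tissue for diet and over the 12 arrays for tissue and interaction, with Benjamini-Hochberg adjustment over all probe sets tested and a threshold of 0.05. Isoform ratios were tested by exact permutation of 6 against 6 arrays. Blanks were left out. The fits were tested on simulated data: a planted 2-fold change was called for 62.7% of its probe sets in liver (16575 tested), 47.8% in lung (21655 tested) and 58.2% for the interaction (15112 tested), and a planted 1.5-fold change for 17.9%, 8.96% and 20.9%. Changes of 1.5-fold (67), 2-fold (67) and 4-fold (66) were planted together in probe sets drawn from all those tested, with noise drawn independently for each. So many planted changes make the adjustment less strict than in the real diet and interaction fits, so these rates are not those of the members.

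Members named in the text were all isoforms, the members with the smallest p for diet and interaction, those with extreme differences between tissues, and central subunits of each complex. The members and lists were chosen with earlier results of these data known. Alternatives were other scalings, log offsets, filters, probe sets, a replicate block, the methods' t-test and leaving out each array. Promoter windows came from RefSeq (GRCm38.p6).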

Additional observations from a re-analysis of the deposited data

How the results depend on the processing

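No diet or interaction call appeared under any alternative run, so the counts stayed at 0 in liver, in lung and for the interaction, also with the methods' t-test in each tissue after adjustment and with a block for replicate number. That block left the medians at 0.07 in liver, -0.10 in lung and -0.14 for the interaction. Between tissues the block instead took same-numbered liver and lung arrays of a diet as 1 mouse, a pairing the labels do not give. It left 74 members called and the median at 1.33. Same-numbered arrays of the 2 diets correlated at -0.188 to 0.147 in their deviations from the group means, so the numbers were not taken to pair the diets. Same-numbered liver and lung arrays correlated at -0.0043, 0.023 and -0.039 in 0.1 Se and at 0.108, 0.064 and 0.110 in 0 Se, a hint from the data that the labels do not settle. Every differently numbered 0 Se pair was below 0. Deviations from a group mean cancel over its arrays, so positive same-numbered pairs push the others below 0, and those signs are not separate support. Leaving out 1 array gave medians of 0.03 to 0.09 in liver, -0.13 to -0.07 in lung, -0.20 to -0.10 for the interaction and 1.33 to 1.37 between tissues, with 71 to 74 members called, and isoform changes of 1.57 to 1.67 (Atp5g1 over Atp5g2), 1.40 to 1.51 (Atp5g1 over Atp5g3), -0.21 to -0.08 (Atp5g2 over Atp5g3) and -1.38 to -1.29 (Cox7a2l over Cox7a2, at -0.84 with the next Cox7a2l probe set). The median between tissues was 0.67 after quantile normalization, 1.53 after centring and 1.40 with the next probe set of each gene, where 41 of 42 genes were called. Atp5c1 was called lower in liver there (-0.78). Among all probe sets, 5122 were higher and 7204 lower in liver as deposited, 3957 and 8692 after quantile normalization, and 6199 and 6005 after centring. Ndufa2 (-0.38) and Ndufc2 (-0.43) turned lower in liver after quantile normalization, and Cox8c fell short with blanks at the lowest value (0.50). Cox7a2l passed the test as lower in liver after quantile normalization (-0.78) and as higher with the next probe set (0.40). The cause was not tested. The lung median was -0.0379 among the arrays with low heart markers, an alternative chosen after seeing the data. Blank and dim probe sets near the lowest value, as for Cox7c, Cox8c, Cox7a1 and Cox4i2, limit what the signals can show.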
